A study of Mus musculus with 16 samples.

Results

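The complement genes followed here were C1qa, C1qb and C1qc, C3, Cfb and Cfp, and the receptor genes C3ar1 and C5ar1. They are 8 of the 54532 genes in the deposited tables and were picked by gene name. RNA came from mouse macrophages grown in CSF-1, the growth factor on which macrophages depend, from tibial bone marrow of wild-type C57BL/6J mice (strain label C57BL/6) aged 2 to 3 months. The series concerns the αV integrin and macrophages after myocardial infarction. The 16 libraries crossed a dish coating with an antibody, in 4 groups of 4: fibronectin_antiITGAV, fibronectin_IgG, uncoated_antiITGAV and uncoated_IgG.

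In all groups marrow cells were held for 24 h in medium with 15% serum and 12 ng/ml CSF-1. The non-adherent cells were then reseeded for 48 h in 120 ng/ml CSF-1. The adherent macrophages were passaged once, onto plates that had been coated with 10 µg/ml of fibronectin, an adhesive protein of the extracellular matrix and an integrin ligand, or onto normal plates. At confluence they received a neutralizing antibody against ITGAV, the αV integrin subunit, or IgG, each at 10 µg/ml for 24 h. No group went without an added antibody. The labels do not state whether replicates are different cultures or mice; each p-value below is therefore set by the spread among the samples, and that spread may be technical.

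Complement is a cascade of proteins that tags targets for uptake and signals to leukocytes. C1q, assembled from the A, B and C chains that C1qa, C1qb and C1qc encode, recognises antibody complexes and dying cells and opens the classical pathway; macrophages are a main source of it in the body. C3 is the protein on which the pathways converge, factor B (Cfb) is the protease of the alternative pathway, and properdin (Cfp) stabilises that pathway's enzyme. The small fragments C3a and C5a, released when C3 and C5 are cleaved, act on leukocytes through the receptors C3AR1 and C5AR1.

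C5ar1 was the 1 member that passed the test: it was higher on fibronectin under either antibody, 1.58-fold under IgG and 1.35-fold under anti-ITGAV. The C1q chain genes were among the most abundant transcripts of the cultures and none of them passed for coating or antibody. Cfp was lower on fibronectin under anti-ITGAV without overlap between the libraries, as 14.1% of all tested genes were without overlap there, but missed the threshold. No member passed for the antibody on either coating, and Cfb was close to 0 in all libraries.

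Total counts ranged from 27995000 to 43413600 per library (rounded to 6 digits). The summed macrophage markers were high, with Lyz2 (lysozyme) at a mean of 23421 CPM (counts scaled to a common library total) and a median of 584 CPM over the 15 markers. The medians were 48.5 CPM for 8 monocyte markers, 17.2 CPM for 16 neutrophil markers, 1.21 CPM for 8 mast cell and basophil markers and 0.408 CPM for 8 dendritic cell markers, and lower for B cell, T and NK cell and fibroblast markers (0.0120 to 0.370 CPM). The B cell markers summed to up to 79.8 CPM and the dendritic cell markers to up to 363 CPM, so single markers lay well above these medians. The library fibronectin_antiITGAV 3 stood apart: the mitochondrial share was 3.46% in it and 1.24 to 1.53% in the remaining 15, and Spearman's rho across genes between its deviation in log2 CPM and transcript GC content was -0.70 against -0.30 to 0.55. Single-gene log2 changes named below that it moved by over 1.5 times are also given without it. In bulk RNA, fewer cells of a type and less RNA per cell cannot be told apart.

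The results turn on 4 members: the neighbours C1qb and C1qc, Cfp, and C5ar1, which changed with coating. Cfp, on another chromosome, followed C1qb closely, but genes outside the members followed C1qb more closely still. The sequences before the starts of these 4 members are shown. They come from RefSeq on GRCm38.p6, which held windows for 6 of the 8 members, and only the stretch outside annotated exons is printed, 5′ to 3′ on the minus strand, from which all 8 members are transcribed. Capitals mark matches to 6 motifs searched on both strands: GAGGAA (PU.1-type ETS), TGANTCA (AP-1), TGCTGA (Maf half-site), TTGCNNAA (C/EBP), the interferon response element and the NF-kB element. No matches overlapped. Positions are counted from the RefSeq start. The GENCODE intervals of C1qc and C5ar1, given with their values, reach beyond that start. The C1qc interval ends at the base next to the printed stretch, so its match lies nearer to the gene as annotated there than the position given. The C5ar1 stretch lies in an intron of the gene as annotated there.
C1qb, chr4:136886201-136886450: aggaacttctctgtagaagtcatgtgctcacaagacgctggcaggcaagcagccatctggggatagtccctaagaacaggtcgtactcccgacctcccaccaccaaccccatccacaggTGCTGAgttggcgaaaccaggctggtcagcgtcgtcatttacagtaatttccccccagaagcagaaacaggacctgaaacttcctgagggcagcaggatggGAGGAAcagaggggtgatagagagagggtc
C1qc, chr4:136893066-136893164: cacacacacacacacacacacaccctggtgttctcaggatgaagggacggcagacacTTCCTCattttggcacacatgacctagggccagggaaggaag
C5ar1, chr7:16259339-16259512: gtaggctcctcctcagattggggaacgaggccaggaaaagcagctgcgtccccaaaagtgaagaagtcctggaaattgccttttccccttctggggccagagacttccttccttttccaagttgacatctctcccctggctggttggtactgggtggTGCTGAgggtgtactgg
Cfp, chrX:20931556-20931805: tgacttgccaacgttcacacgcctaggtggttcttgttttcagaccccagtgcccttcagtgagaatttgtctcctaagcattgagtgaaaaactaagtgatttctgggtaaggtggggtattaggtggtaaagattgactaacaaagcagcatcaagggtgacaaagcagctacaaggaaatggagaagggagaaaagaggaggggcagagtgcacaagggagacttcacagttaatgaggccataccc
The C1qb window held GAGGAA beginning 30 bases before the start and TGCTGA beginning 131 bases before it, letters that 23.3% and 16.1% of all RefSeq windows of that length hold. The C1qc stretch held GAGGAA on the other strand, beginning 193 bases before the start (9.91% of windows of its length), and the C5ar1 stretch held TGCTGA beginning 17 bases before the start (11.6%). The Cfp window held none of the 6. A match of letters is a description of the sequence, not a binding site.

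Per transcript length, the C1q chains led the members. Over the 16 libraries C1qb averaged 1649 ± 224 FPKM (SD, n = 16; fragments scaled to transcript length and library total, as deposited) and ranked 14 among protein-coding genes, C1qa averaged 906 ± 148 FPKM (rank 24) and C1qc 641 ± 95.4 FPKM (rank 43). Cfp followed with 396 ± 54.0 FPKM (rank 79), then C3ar1 with 242 ± 28.1 FPKM (rank 149) and C5ar1 with 228 ± 47.5 FPKM (rank 158), and the ranges of the last pair overlapped. C3 stood at 10.2 ± 1.37 FPKM (rank 4269) and Cfb at 0.0285 FPKM (rank 13083). So the C1q recognition molecule, properdin and both fragment receptors were abundant at the RNA level, while the central component C3 was far lower and factor B was near 0.

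**Figure D1:**
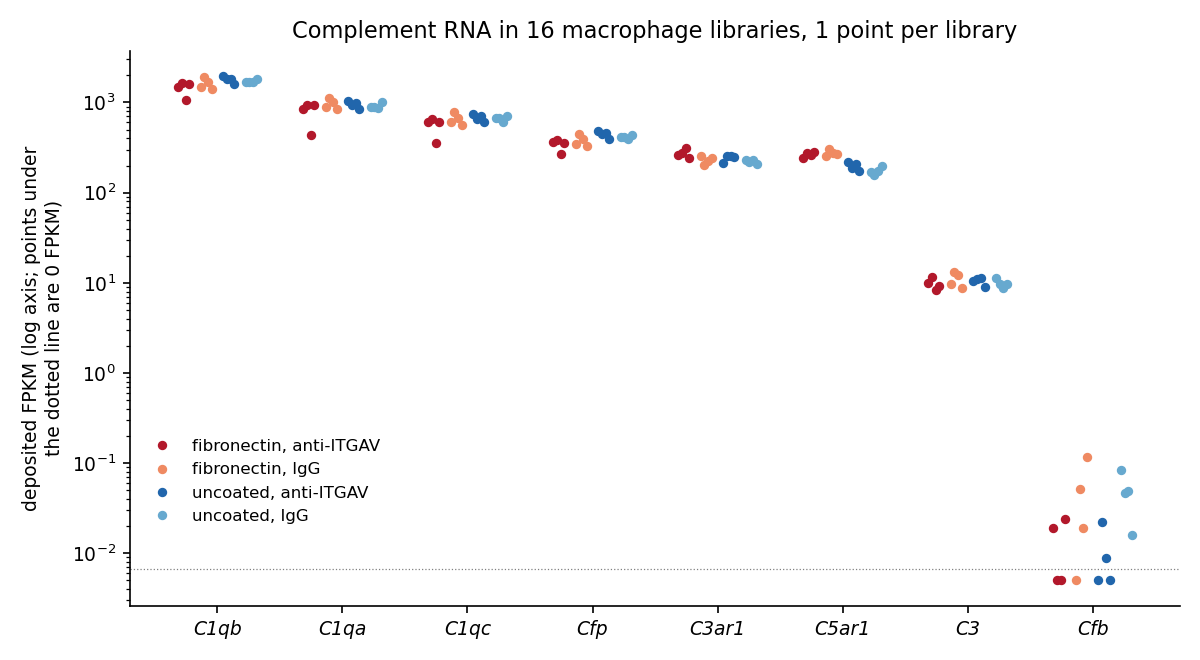
Deposited FPKM of the 8 complement genes on a log axis, with 1 point per library and the groups in the colours of the legend; points under the dotted line are listed at 0. C1qb averaged 1649 FPKM and C3 10.2 FPKM, and Cfb was at 0 in 5 libraries; 1 fibronectin_antiITGAV library lies below the rest for the C1q chains.

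The C1q genes lie together on chromosome 4 of GRCm38, all on the minus strand: C1qb (ENSMUSG00000036905, chr4:136880129-136886187), C1qc (ENSMUSG00000036896, chr4:136889804-136893065) and C1qa (ENSMUSG00000036887, chr4:136895917-136898803), within 18675 bases and with 3616 and 2851 bases between neighbours. C1qb had 1678, 1822, 1149 and 1769.7 CPM in fibronectin_antiITGAV 1 to 4 and 1639, 2133, 1876 and 1567 CPM in fibronectin_IgG. It had 2198, 1968, 2014 and 1753 CPM in uncoated_antiITGAV and 1855, 1831, 1836 and 2046 CPM in uncoated_IgG. One library, fibronectin_antiITGAV 3, was far below all others, and the groups overlapped in each of the 4 comparisons of coating or antibody.

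C1qa had 909.6, 987, 455 and 982 CPM in fibronectin_antiITGAV and 951, 1181, 1060.0 and 901 CPM in fibronectin_IgG. It had 1118, 975.1, 1057 and 890.3 CPM in uncoated_antiITGAV and 934, 927, 911 and 1068 CPM in uncoated_IgG. The same library was lowest, and the groups overlapped. C1qc had 1198, 1279, 697 and 1188 CPM in fibronectin_antiITGAV and 1213, 1539.7, 1329 and 1115 CPM in fibronectin_IgG. It had 1481, 1289.5, 1378 and 1190.3 CPM in uncoated_antiITGAV and 1299, 1317, 1178 and 1412 CPM in uncoated_IgG. The pattern was that of C1qa and C1qb, with 1 low library and overlapping groups.

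None of the 3 chains passed edgeR's quasi-likelihood test in any comparison. Their log2 changes between pairs of groups lay between -0.31 and 0.09, and the largest in size was that of C1qb for fibronectin under anti-ITGAV, -0.31 ± 0.13 (SE, 95% interval -0.58 to -0.03, adjusted p = 0.181). For the antibody on fibronectin the values were -0.30 ± 0.18 for C1qa, -0.17 ± 0.13 for C1qb and -0.25 ± 0.15 for C1qc (adjusted p = 0.721 each). Without fibronectin_antiITGAV 3 these became -0.09, -0.04 and -0.09, and C1qb for fibronectin under anti-ITGAV became -0.17 (adjusted p = 0.367). The change of C1qa for fibronectin averaged over both antibodies, -0.09 ± 0.13, turned to 0.01 without that library.

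Together the chains took 0.403% ± 0.0578 of all counts (SD, n = 16; range 0.227 to 0.477%), and their proportions moved less than their levels in most libraries. The FPKM ratio of C1qa to C1qb was 0.414 to 0.581 in fibronectin_antiITGAV, 0.579 to 0.607 in fibronectin_IgG, 0.518 to 0.549 in uncoated_antiITGAV and 0.519 to 0.546 in uncoated_IgG. The value of 0.414 was that of fibronectin_antiITGAV 3; the next lowest of that group was 0.567. All libraries on fibronectin but that one thus had a higher ratio than all libraries on uncoated dishes, a description for which no test was run. The FPKM ratio of C1qc to C1qb was 0.342 to 0.402 in fibronectin_antiITGAV, 0.399 to 0.417 in fibronectin_IgG, 0.369 to 0.386 in uncoated_antiITGAV and 0.361 to 0.405 in uncoated_IgG.

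The 3 chains followed the GC trend of the libraries closely. That trend is computed over all tested genes, so GC-rich genes tend to follow it by construction. The correlations below describe the members, and genes of like GC content outside the members were not compared. The transcripts of the chains had GC contents of 59.5% (C1qa), 57.4% (C1qb) and 57.5% (C1qc), higher than 95.6%, 89.7% and 90.3% of the tested genes. Across the 16 libraries the log2 CPM of C1qa correlated with the library's GC trend with r = 0.80 and rho = 0.92 (permutation adjusted p over 7 genes = 2.33e-05 and 7e-05), C1qb with r = 0.85 and rho = 0.84 and C1qc with r = 0.82 and rho = 0.87 (adjusted p of 2.33e-05 for r and 0.000257 and 0.000245 for rho). The unadjusted p behind 2.33e-05, 1e-05, is the smallest that the permutations can give. Without the 2 libraries farthest from the median trend, fibronectin_IgG 2 and fibronectin_antiITGAV 3, r was 0.94, 0.80 and 0.81. Among the members this was not particular to the chains. Over the 16 libraries Cfp had r = 0.80 and rho = 0.75 (permutation adjusted p = 0.00021 and 0.00195). C3 had r = 0.79 and rho = 0.81 (permutation adjusted p = 0.000546 and 0.000385). C3ar1 and C5ar1 had r = -0.58 and 0.19 (permutation adjusted p = 0.0209 and 0.483). When a per-library GC trend was taken out of the counts, the SD of log2 CPM within groups was 0.061 for C1qa, 0.070 for C1qb and 0.066 for C1qc, against 0.297, 0.200 and 0.243 without that step. With the GC trend removed, all C1q changes between pairs of groups still missed the threshold, with C1qb for fibronectin at -0.13 under IgG and -0.10 under anti-ITGAV (adjusted p = 0.209 and 0.333).

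**Figure D2:**
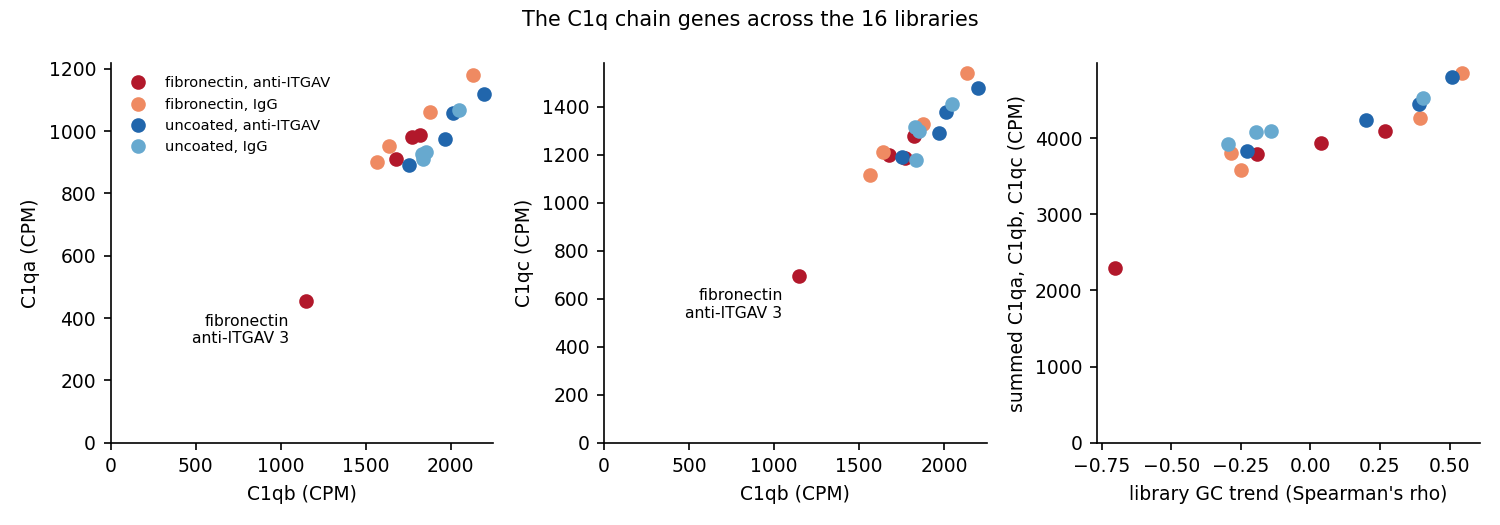
C1qa (left) and C1qc (middle) against C1qb in CPM, and the summed CPM of the 3 chains against the library's GC trend (right; Spearman's rho across genes between GC content and deviation in log2 CPM), with 1 point per library. The sum was 2301 CPM in fibronectin_antiITGAV 3, at a GC trend of -0.70, and reached 4853 CPM at the highest trend, 0.55.

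Cfp (ENSMUSG00000001128, chrX:20925454-20931555, minus strand), which encodes properdin, had 654, 667, 468 and 632 CPM in fibronectin_antiITGAV and 619, 793, 695 and 592 CPM in fibronectin_IgG. It had 864, 772, 803 and 699 CPM in uncoated_antiITGAV and 719, 721, 694 and 779 CPM in uncoated_IgG. Under anti-ITGAV each fibronectin library was below each uncoated library, while under IgG the groups overlapped. Under anti-ITGAV 14.1% of all tested genes had coatings that did not overlap, so this is not read as a result about the members. The log2 change for fibronectin was -0.37 ± 0.12 under anti-ITGAV (SE, edgeR adjusted p = 0.0679), -0.11 ± 0.12 under IgG (adjusted p = 0.756) and -0.24 ± 0.08 averaged over both antibodies (adjusted p = 0.0642), so Cfp missed the threshold of 0.05 in each. Without fibronectin_antiITGAV 3 the values were -0.27 under anti-ITGAV (adjusted p = 0.106) and -0.19 averaged (adjusted p = 0.0495). The averaged change passed in 7 of the 13 settings other than leaving out a library, DESeq2 (adjusted p = 0.0325) and the GC correction (-0.17, adjusted p = 0.00494) among them. The change with coating differed between antibodies by -0.26 ± 0.16 (adjusted p = 0.646), or -0.16 without that library. With the GC trend removed, the change with coating was -0.18 under anti-ITGAV and -0.17 under IgG (edgeR adjusted p = 0.0524 and 0.0882). Its difference between antibodies was then -0.02 (adjusted p = 0.985).

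Monocytes and neutrophils also make properdin, and neutrophil markers differed with coating and with the antibody. Of the 16 neutrophil markers, 9 were lower on fibronectin averaged over both antibodies (0 higher), where 11.8% of all tested genes were called. In that comparison 3 of 7 tested mast cell and basophil markers, 3 of 6 B cell, 3 of 6 fibroblast and 3 of 15 macrophage markers were also lower. None of these was higher, and 0 of 8 dendritic cell markers were called. For the antibody, 4 neutrophil markers were lower averaged over both coatings and 2 on fibronectin (0 higher), against 0.0711% and 0.0129% of all tested genes called. The neutrophil markers summed to 334 to 478 CPM in fibronectin_antiITGAV, 456 to 565 CPM in fibronectin_IgG, 467 to 513 CPM in uncoated_antiITGAV and 565 to 614 CPM in uncoated_IgG. Of the 8 monocyte markers 1 was lower on fibronectin averaged over both antibodies, near the share of all tested genes. They summed to 1063 to 1164 CPM in fibronectin_antiITGAV, 870.3 to 1257 CPM in fibronectin_IgG, 935 to 1379 CPM in uncoated_antiITGAV and 1128 to 1415 CPM in uncoated_IgG, and the coatings overlapped under either antibody. No marker of either list was at 0 in all libraries. Their part in the values of Cfp and of the receptors below was not tested.

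C3 (ENSMUSG00000024164, chr17:57203970-57228136, minus strand) had 52.1, 59.5, 43.3 and 47.6 CPM in fibronectin_antiITGAV and 50.8, 68.5, 64.0 and 45.9 CPM in fibronectin_IgG. It had 55.6, 57.4, 58.8 and 46.6 CPM in uncoated_antiITGAV and 58.1, 50.5, 45.6 and 51.3 CPM in uncoated_IgG. The groups overlapped in every comparison, and C3 passed in none. Its log2 change for fibronectin was 0.16 ± 0.13 under IgG (95% interval -0.12 to 0.44) and -0.11 ± 0.13 under anti-ITGAV (-0.39 to 0.17), and for the antibody -0.18 ± 0.13 on fibronectin and 0.09 ± 0.13 on uncoated dishes (edgeR adjusted p between 0.648 and 0.988). Without fibronectin_antiITGAV 3 it was -0.04 for fibronectin under anti-ITGAV and -0.11 for the antibody on fibronectin. Cfb (ENSMUSG00000090231, chr17:34856374-34862518, minus strand) did not pass the filter on low counts and was not tested with the others. It had 0 to 11 counts per library, which summed to 4 in fibronectin_antiITGAV, 18 in fibronectin_IgG, 3 in uncoated_antiITGAV and 19 in uncoated_IgG. In the 5 libraries at 0, up to 3 counts are allowed (0.0691 to 0.107 CPM over the 16 libraries, counting error only). Fitted without the filter, Cfb had an unadjusted p of 0.0194 for the antibody averaged over both coatings and an adjusted p of 0.9999 in edgeR.

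C5ar1 (ENSMUSG00000049130, chr7:16246743-16259540, minus strand), the C5a receptor gene, had 635, 722, 673 and 737 CPM in fibronectin_antiITGAV and 674, 784, 721 and 699 CPM in fibronectin_IgG. It had 569.7, 483, 544 and 454 CPM in uncoated_antiITGAV and 443, 410.3, 451 and 514 CPM in uncoated_IgG. All 8 libraries on fibronectin were above all 8 on uncoated dishes, whichever antibody was present. The group means were 692 ± 46.4 CPM in fibronectin_antiITGAV, 719 ± 47.2 in fibronectin_IgG, 513 ± 53.3 in uncoated_antiITGAV and 455 ± 43.4 in uncoated_IgG (SD, n = 4 each). The groups within a coating overlapped.

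On fibronectin C5ar1 rose by 0.66 ± 0.09 on the log2 scale under IgG (SE, 95% interval 0.47 to 0.86, edgeR adjusted p = 0.000609), and it was the 1 member called of 7 tested, where 3.79% of all tested genes were called and 2.37% were called and higher. Under anti-ITGAV it rose by 0.43 ± 0.09 (0.24 to 0.63, adjusted p = 0.0115), again the 1 member called of 7, against 5.66% of all tested genes called and 2.84% called and higher. Averaged over both antibodies it rose by 0.55 ± 0.07 (1.46-fold, adjusted p = 4.03e-05), the 1 member called, against 11.8% of all tested genes called and 6.58% called and higher. Groups that do not overlap were found for 13.1% of tested genes under IgG, 14.1% under anti-ITGAV and 3.82% averaged. The call is a result for C5ar1 alone and not for the members as a list.

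The rise of C5ar1 with coating under anti-ITGAV differed from that under IgG by -0.23 ± 0.13 on the log2 scale (95% interval -0.51 to 0.05, edgeR adjusted p = 0.646), so a difference between antibodies was not shown. The call under anti-ITGAV was lost when only the 8 libraries compared were fitted (0.43, adjusted p = 0.0615) and without uncoated_antiITGAV 2 (0.40, adjusted p = 0.0503). Without fibronectin_antiITGAV 3 the values were 0.66 under IgG, 0.45 under anti-ITGAV and 0.55 averaged, all called. C5ar1 lies in the middle of the tested genes in GC content (49.2%, higher than 50.2% of them), and with the GC trend removed the values were 0.66, 0.44 and 0.55, all called. Neutrophils express C5ar1 too, and their summed markers are given above. Their part in the C5ar1 values was not tested.

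C3ar1 (ENSMUSG00000040552, chr6:122847138-122856161, minus strand), the C3a receptor gene, had 1144, 1193, 1363 and 1065 CPM in fibronectin_antiITGAV and 1128, 885, 985 and 1063 CPM in fibronectin_IgG. It had 948, 1094, 1106 and 1084 CPM in uncoated_antiITGAV and 1012, 939.7, 993 and 915 CPM in uncoated_IgG. The highest library was fibronectin_antiITGAV 3, and groups that share a coating or an antibody overlapped. For the antibody the log2 change was 0.23 ± 0.09 on fibronectin (unadjusted p = 0.0248, adjusted p = 0.721), 0.13 ± 0.09 on uncoated dishes (adjusted p = 0.988) and 0.18 ± 0.07 averaged over both coatings (unadjusted p = 0.0139, adjusted p = 0.9999), so C3ar1 did not pass. Without fibronectin_antiITGAV 3 the value on fibronectin was 0.16. Removing the GC trend reversed the order of the coatings. The antibody's value was then 0.286 ± 0.079 without coating (edgeR adjusted p = 0.392) and 0.079 ± 0.079 with it (adjusted p = 0.967). These differed by -0.21 ± 0.11 (adjusted p = 0.947), so a difference between coatings was not shown. For the fibronectin coating, before that step, the log2 change was 0.07 ± 0.09 under IgG (95% interval -0.12 to 0.27, adjusted p = 0.819). It was 0.17 ± 0.09 under anti-ITGAV (-0.03 to 0.37, adjusted p = 0.291). The value under anti-ITGAV was 0.10 without fibronectin_antiITGAV 3 and -0.04 with the GC trend removed. The FPKM ratio of C3ar1 to C5ar1 was 0.862 to 1.21 in fibronectin_antiITGAV, 0.674 to 1.00 in fibronectin_IgG, 0.993 to 1.42 in uncoated_antiITGAV and 1.06 to 1.37 in uncoated_IgG.

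**Figure D3:**
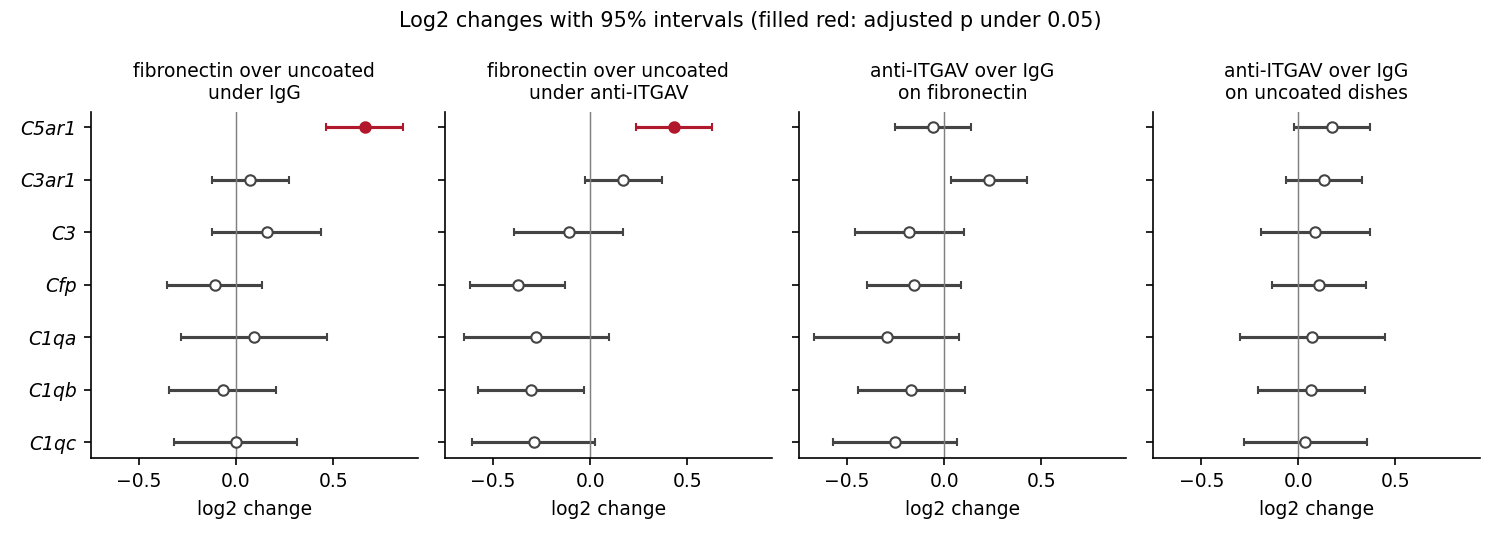
Log2 changes of the 7 tested complement genes with 95% intervals from edgeR, for fibronectin over uncoated dishes under each antibody and for anti-ITGAV over IgG on each coating. C5ar1 is the 1 gene past the threshold, at 0.66 and 0.43 in the fibronectin panels; no interval in the antibody panels goes with a call.

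The antibody changed no member by edgeR's test. On uncoated dishes 0 of 7 tested members were called (0 at an unadjusted p under 0.05), where 0.0129% of all tested genes were called. On fibronectin 0 of 7 were called (1, C3ar1, at an unadjusted p under 0.05), also against 0.0129%, and averaged over both coatings 0 of 7 (again C3ar1 unadjusted), against 0.0711%. The coating by antibody interaction called 0 members (0 unadjusted) and 0% of tested genes. DESeq2 and the other settings called 0 members for the antibody as well. The median log2 change of the 7 members for the antibody was 0.09 on uncoated dishes and -0.17 on fibronectin, against 0.01 and 0.00 over all tested genes; for fibronectin it was 0.07 under IgG and -0.28 under anti-ITGAV, against 0.00 and 0.01. Without fibronectin_antiITGAV 3 the members' median was -0.051 for the antibody on fibronectin and -0.074 for fibronectin under anti-ITGAV.

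Beyond the members, 55 other complement genes were listed, of which 26 were expressed highly enough to be tested. For fibronectin 1 was higher under IgG, 2 under anti-ITGAV and 3 averaged over both antibodies, and 0 were lower; for the antibody 0 were called. These 1, 2 and 3 of 26 lie close to the 3.79%, 5.66% and 11.8% of all tested genes called, so nothing is read from them as a list. Itgax, the αX chain of complement receptor CR4, which binds cleaved C3, had 41.9, 49.8, 46.9 and 43.4 CPM in fibronectin_antiITGAV and 33.7, 40.4, 37.6 and 41.3 CPM in fibronectin_IgG. It had 22.2, 18.8, 22.8 and 20.7 CPM in uncoated_antiITGAV and 15.4, 14.3, 16.8 and 20.4 CPM in uncoated_IgG. Like C5ar1, it separated the coatings without overlap. On fibronectin Itgax rose by 1.19 ± 0.12 on the log2 scale under IgG (2.29-fold, edgeR adjusted p = 2.41e-05) and 1.11 ± 0.12 under anti-ITGAV (2.15-fold, adjusted p = 4.98e-05). For the antibody its values were 0.34 ± 0.12 on uncoated dishes and 0.25 ± 0.11 on fibronectin (adjusted p = 0.988 and 0.721).

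Lair1, an inhibitory receptor that binds collagens and C1q, had 81.2, 80.1, 109 and 83.8 CPM in fibronectin_antiITGAV and 88.1, 59.3, 67.7 and 83.3 CPM in fibronectin_IgG. It had 47.8, 60.4, 52.4 and 60.04 CPM in uncoated_antiITGAV and 55.8, 58.3, 66.7 and 55.9 CPM in uncoated_IgG. Under anti-ITGAV the coatings did not overlap, and under IgG they did. Lair1 rose on fibronectin under anti-ITGAV by 0.68 ± 0.13 (edgeR adjusted p = 0.00652) and averaged by 0.51 ± 0.09 (adjusted p = 0.00167); under IgG its value was 0.33 ± 0.13 (adjusted p = 0.217), and with the GC trend removed 0.40 (adjusted p = 0.000528). The change of Lair1 with coating differed between antibodies by 0.35 ± 0.19 (adjusted p = 0.646), so a difference was not shown. Without fibronectin_antiITGAV 3 the value under anti-ITGAV was 0.57 (adjusted p = 0.00794). C1qbp, which encodes a mitochondrial protein first described as a binder of C1q, was the third call, at 0.25 ± 0.08 averaged (adjusted p = 0.0403). The call held without 4 of the 16 libraries and was lost without each of the other 12, at adjusted p up to 0.0939. In the 13 settings other than leaving out a library it held in 9, at adjusted p of 0.00523 to 0.105 over the 13.

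Other partners of these receptors did not pass. Itgam and Itgb2, the αM chain of CR3 and the β chain that CR3 and CR4 share, averaged 69.5 and 351 FPKM. Itgb2 had a log2 change of 0.21 ± 0.09 for fibronectin under IgG (edgeR adjusted p = 0.269), and Itgam one of 0.33 ± 0.16 for the antibody on fibronectin (adjusted p = 0.721), or 0.025 without fibronectin_antiITGAV 3. Cd93, once described as a C1q receptor, averaged 181 FPKM and had 0.12 ± 0.06 for the antibody on uncoated dishes (adjusted p = 0.988). The second C5a receptor, C5ar2, averaged 3.24 FPKM, and the C1r gene C1ra 2.14 FPKM. The ficolin genes Fcna and Fcnb averaged 33.4 and 1.51 FPKM; for the antibody Fcna had -0.31 ± 0.13 on fibronectin and Fcnb -0.68 ± 0.28 on uncoated dishes (adjusted p = 0.721 and 0.988), and without fibronectin_antiITGAV 3 the value of Fcna was -0.18. C4a and Cpn1, both under 1 CPM on average over the 16 libraries, had -1.61 ± 0.51 for the antibody on fibronectin (adjusted p = 0.721) and -2.02 ± 1.02 for fibronectin under anti-ITGAV (adjusted p = 0.253).

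**Figure D4:**
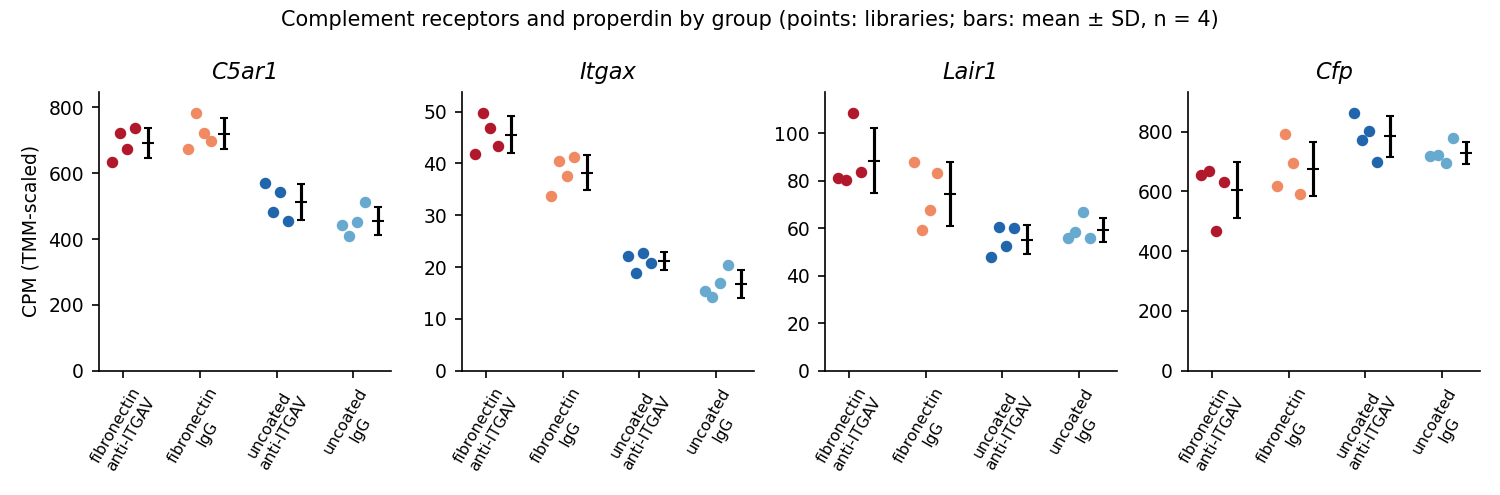
CPM of C5ar1, Itgax, Lair1 and Cfp in the 16 libraries, with the mean and SD of each group of 4 beside its points. For C5ar1 and Itgax all 8 fibronectin libraries lie above all 8 uncoated ones; for Cfp the fibronectin_antiITGAV libraries lie below the uncoated_antiITGAV ones.

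How the members varied together was described over the 16 libraries, with 21 pairs compared. In log2 CPM the C1q chains correlated with each other with r of 0.93 to 0.97 and rho of 0.84 to 0.88 (permutation adjusted p of 5.25e-05 to 8.4e-05 for r and 0.00021 to 0.00063 for rho), and with r of 0.80 to 0.89 without the 2 libraries farthest from the median. Cfp, on the X chromosome, correlated with C1qb with r = 0.97 and rho = 0.93 (permutation adjusted p = 5.25e-05 and 0.00021), and r = 0.94 without 2 such libraries. Genes outside the members, named below, were closer to C1qb in log2 CPM (r of 0.99), so this likeness in log2 CPM is not particular to the pair. C3ar1, whose transcript has a GC content higher than only 17.8% of tested genes, ran against the C1q chains, with r of -0.74 to -0.79 and rho of -0.51 to -0.65 (adjusted p of 0.00147 to 0.00298 for r and 0.0163 to 0.072 for rho). Without the 2 libraries farthest from the median of the chain r was -0.35 to -0.55, so this relation rests in part on those libraries. The libraries differed in GC trend, along which GC-rich and GC-poor genes go apart by definition. The part of that trend in these relations was not tested. With that trend removed, r between the chains was 0.27 to 0.65, r between C3ar1 and the chains 0.12 to 0.36, and r between C1qb and Cfp 0.93. Genes outside the members were not compared with the trend removed, so whether the 0.93 is particular to the pair is not known. C5ar1 and Cfp had r = -0.36 and rho = -0.33 (adjusted p = 0.219 and 0.274) and r = -0.65 with the trend removed; within groups, before that step, r was 0.56.

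**Figure D5:**
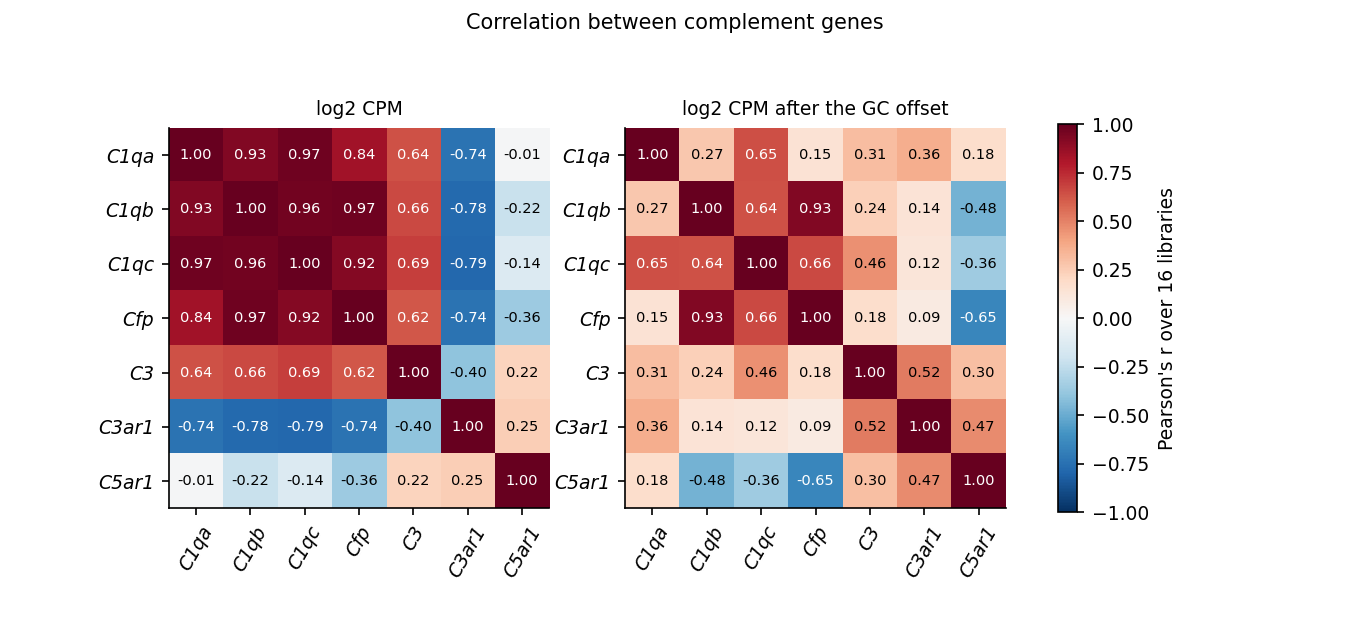
Pearson's r between the 7 tested complement genes over the 16 libraries, in log2 CPM (left) and with each library's GC trend removed (right). The pair C1qb and Cfp stayed at 0.93 on the right, while C3ar1 against the C1q chains changed sign. Genes outside the members were not compared with the trend removed.

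The protein-coding genes reported here whose log2 CPM followed each member most closely, among 10898 compared, were Ptk2b (r = 0.99), Basp1 and Etv5 for C5ar1 and Tor1aip2 (r = 0.93) and Lpl for C3ar1. They were Tkt, Spi1 and Arpc1b for C1qa (r of 0.99 to 1.00), Fuca1, Ctsa and Sirt2 for C1qb (0.99 each), and Sin3b, Rps9 and Rps19 for C1qc (0.99 each). Akt2, Itm2c and Rtf2 were nearest to Cfp (0.98 to 0.99) and Arl8a (0.91), Zfp503 and Tor3a to C3. These libraries share depth, coating and GC trends, and the list is a description of likeness over 16 libraries.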

How the data were processed

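PolyA-selected, paired-end RNA libraries (NovaSeq X Plus) were grouped by the coating and antibody in their titles. The authors deposited whole-number counts per gene and, for the same 54532 genes, FPKM, which equalled counts over gene length and a library constant of 0.989 to 1.04 times the total. Per the submitters' processing notes, the tools were HISAT2, StringTie and featureCounts and the builds GRCm38.p6 and mm10; for the strand setting and reads matching several genes, the handling is not given in the sources used here.

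These whole-number counts, as deposited, were analysed with edgeR 4.0.16 in R 4.3.3: filterByExpr (minimum count 10; 15469 genes left), TMM scaling, 1 mean per group over all 16 libraries, robust quasi-likelihood F tests and Benjamini-Hochberg adjustment over all tested genes (threshold 0.05), for 7 comparisons. CPM uses TMM-scaled totals; log2 CPM has a prior count of 2. Alternatives were DESeq2 1.42.0, other scaling and filters, the 8 libraries alone, a replicate block, a GC offset (spline with 5 degrees of freedom; GC known for 15457 genes), voom with quality weights and limma 3.58.1 on log2(FPKM + 1) and log2(FPKM + 0.1), and leaving out each library. Correlations used 100000 permutations; 21 of the 28 planned pairs had both genes tested, since Cfb was filtered out. The test was tried on simulated data first. Replicates within groups differed by a chi-square over degrees of freedom of 5.11 to 182, so none was a library deposited again. At a count of 0, 3 counts are allowed.

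Members, gene lists and tests were chosen with earlier results of these data known. Named genes were the members, other listed complement genes called anywhere or among the 4 with the smallest adjusted p in a comparison of a pair of groups, the 3 protein-coding genes most correlated with each member (mean of at least 1 CPM) and the top gene of marker lists; 2 genes that the rule names are not reported here. Genes whose abundance is given without a test (C5ar2, C1ra) were added after their values were seen.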

Additional observations from a re-analysis of the deposited data

Results flagged for a closer look

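Within the groups of 4 libraries, 6 of 44 combinations of group and measure had a library far from the others by Dixon's ratio at its 95% critical value. Chance gives about 1 in 20 for each combination. The measures are not independent, since the C1q chains vary together and the ratios are built from the same genes. No excess over chance is therefore read from the count. In fibronectin_antiITGAV 3, C1qa stood at 455 CPM (next lowest in the group 909.6) and C1qc at 697 CPM (next 1188), and the FPKM ratio of C1qa to C1qb was 0.414 (next 0.567). This library also had the highest mitochondrial share and the lowest GC trend, and the part of either in these values was not tested. In uncoated_IgG 4, C1qa stood at 1068 CPM (next highest 934) and C1qb at 2046 CPM (next 1855), at a GC trend of 0.40 against -0.30 to -0.14 in the other libraries of that group. C3ar1 stood at 948 CPM in uncoated_antiITGAV 1 (next lowest 1084), the library with the highest GC trend of its group, 0.51.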

How the results depend on the processing

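C5ar1 for fibronectin under IgG and averaged over both antibodies kept its direction and call in all settings run, at 0.60 to 0.73 and 0.51 to 0.58 on the log2 scale. Under anti-ITGAV it was called without 15 of the 16 libraries (0.38 to 0.49; the exception was uncoated_antiITGAV 2) and in 13 of 14 other settings. The number of members called, 1 for fibronectin under anti-ITGAV, was 2 with DESeq2 and voom, 0 with the 8 libraries alone and 0 to 2 when 1 library was left out; under IgG it was 2 with voom. Averaged over both antibodies it was 2 with DESeq2, a filter of 1 CPM in 4 libraries, the GC offset, the replicate block with GC offset and limma on log2(FPKM + 1) and log2(FPKM + 0.1), 3 with voom, and 1 to 2 when 1 library was left out. Cfp was the added call in each, with C1qb also added by voom (-0.17, adjusted p = 0.00820).

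Member values that changed sign were all uncalled, and the cause was not tested. C1qc for fibronectin under IgG (-0.0025) was 0.00065 with upper quartile scaling, 0.0021 with no low-count filter and -0.094 to 0.049 when 1 library was left out. With the GC offset C1qc for the antibody on uncoated dishes was -0.028, C1qb and Cfp for the antibody were 0.033 and 0.027 on fibronectin and 0.018 and 0.035 averaged, C3 and C3ar1 for fibronectin under anti-ITGAV 0.0086 and -0.043, and C1qb and C3ar1 for the interaction 0.030 and -0.21. The replicate block with GC offset gave, for the same results, -0.028, 0.034, 0.027, 0.018, 0.035, 0.0073, -0.043, 0.031 and -0.20. With voom, for the antibody on fibronectin, C1qb was 0.075, C1qc 0.0059, C3 0.033, C5ar1 0.020 and Cfp 0.046; averaged, C1qa was 0.056, C1qb 0.088, C1qc 0.033, C3 0.092 and Cfp 0.088; C3 for fibronectin averaged was -0.043 and C3ar1 for the interaction -0.077. When 1 library was left out, the antibody gave -0.020 to 0.087 for C1qc on uncoated dishes and, averaged, -0.092 to 0.015 for C1qb, -0.099 to 0.0029 for C3 and -0.062 to 0.027 for Cfp; fibronectin averaged gave -0.15 to 0.0093 for C1qa and -0.034 to 0.060 for C3.

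Over all genes, the 586 calls for fibronectin under IgG were 253 to 1325 when 1 library was left out and 309 to 2481 in other settings; the 876 under anti-ITGAV were 428 to 1037 and 251 to 2173; the 1831 averaged were 1325 to 2468 and 1340 to 4128. For the antibody, 2 calls on uncoated dishes were 0 to 109 in other settings, 2 on fibronectin 0 to 19 and 11 averaged 8 to 108. Same-numbered libraries did not deviate together (24 pairs, r of -0.30 to 0.28, 4 over 0.1), and 5 of 16 libraries correlated best with their own number. No pairing by number was thus seen. The GC trend was not removed for this, so it cannot tell whether same-numbered libraries share a mouse or culture. The replicate block changed no member's call, with C5ar1 at 0.66, 0.43 and 0.55 for fibronectin under IgG, under anti-ITGAV and averaged; over all genes it gave 360, 600 and 1519 calls, and it ended that of C1qbp (adjusted p = 0.0728).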
